A study of Mus musculus with 16 samples.

Results

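5S rRNA, the smallest of the ribosomal RNAs and a part of the large subunit, is described here from the starts of sequencing reads at each of its nucleotides. All 120 positions that the deposited files give for 5S rRNA (named ribo_5S there, numbered here from 1) were taken, out of 6878 positions over 4 rRNAs (1871 of 18S, 4731 of 28S, 156 of 5.8S and 120 of 5S). The data are pseudouridine sequencing (Ψ-seq) of total RNA from female mouse CD4 T cells that were activated for 20 h on plates coated with anti-CD3 and anti-CD28. Control cells were Rnmt fl/fl CD4cre - and Rnmt cKO cells were Rnmt fl/fl CD4cre +. Both genotypes therefore carried the floxed alleles, and the control had no Cre transgene. RNMT is the methyltransferase that completes the mRNA cap, and CD4-Cre deletes the floxed exon in T cells as they develop, so deletion precedes activation. For each of 4 numbered samples of each genotype, called animals here, 1 portion of RNA was treated with 0.17 M CMC and 1 portion was mock treated, which gave 16 libraries.

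18S, 28S and 5.8S rRNA are cut from a single precursor that RNA polymerase I makes in the nucleolus. 5S rRNA is transcribed separately by RNA polymerase III from tandem gene arrays, binds the ribosomal proteins RPL5 and RPL11 and joins the large subunit as part of that complex. In Ψ-seq, CMC reacts with uridine, guanosine and pseudouridine, and an alkaline step then removes most of it except from pseudouridine, where the bulky group stops reverse transcriptase 1 nucleotide short. A read that starts just downstream of a base more often with CMC than without marks such a stop. The comparisons here asked how much of each library was 5S, where along 5S the reads began, which 5S positions responded to CMC, and whether any of these differed between Rnmt cKO and control.

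The libraries held 1130058 to 2165668 read starts, of which 113386 to 234935 fell in 5S rRNA. The CMC label of each pair of libraries was checked on 18S rRNA by its PSU score, the ratio of CMC to mock termination in the same animal: over the 27 to 29 stops that met the criteria for pseudouridine given later in the other 7 animals, the median score in the animal left out was 4.16 to 6.20, and all of these stops were above 1. Loss of Rnmt mRNA and T cell markers could not be checked, because the files hold rRNA alone. None of the 24 pairs of libraries within a group agreed within sampling noise of their 5S counts (chi-square divided by its degrees of freedom at least 5.68). Control 1 mock stood apart in 5.8S rRNA, which held 4.08% of its starts. Its ratio of 5S to 5.8S starts was 3.00, against 0.942 to 1.07 in the other control mock libraries. Rnmt cKO 3 mock had the fewest starts, 1130058 in total and 113386 in 5S. Nucleotide 1 held 2.21% of its 18S starts, against 1.55% to 1.66% in the other Rnmt cKO mock libraries. Each CMC minus mock change and PSU score of Rnmt cKO 3 uses this library.

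5S rRNA holds 1.74% of the positions, and 9.93% to 12.3% of the read starts fell in it. 5.8S rRNA, the other short rRNA, held a mean of 10.4% of the starts on 156 positions, so 5S was not alone in this. Per nucleotide, 5S had 6.87 to 9.27 times the starts of 18S rRNA in the same library, and the cause was not tested. Recovery of an RNA in such libraries depends on fragment length and ligation as well as on its amount, and these cannot be told apart here. The share was 12.3%, 10.8%, 10.4% and 10.3% in control mock libraries 1 to 4 and 11.6%, 10.9%, 10.0% and 10.2% in the Rnmt cKO mock libraries. With CMC it was 12.2%, 11.4%, 11.2% and 11.0% in control and 12.1%, 11.1%, 9.93% and 10.4% in Rnmt cKO. The genotypes overlapped in both treatments, and the animals numbered 1 were the highest of their group in all 4 groups.

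The 5S share did not differ beyond the spread between animals in either treatment. With CMC it was 10.9% ± 0.95 (SD, n = 4) in Rnmt cKO and 11.5% ± 0.54 (SD, n = 4) in control, a difference of -0.60 percentage points (exact permutation test, two-sided, p = 0.286, adjusted p = 0.342 over 13 exact tests). The difference was -0.282 without Rnmt cKO 3, -0.345 without control 1 and -1.002 without Rnmt cKO 1, and it was positive when 5S was set against 18S starts. In mock libraries it was 10.7% ± 0.74 against 11.0% ± 0.91 (SD, n = 4 each; exact permutation p = 0.629). Within animals the CMC library held 0.349 percentage points more 5S than the mock library, higher in 6 of 8 animals (exact sign-flip p = 0.0313, adjusted p = 0.135). That difference did not pass the correction, and it changed sign when 5S was set against 5.8S, in which control 1 mock stood apart. The CMC minus mock change was 0.515 ± 0.387 percentage points in control and 0.183 ± 0.236 in Rnmt cKO (SD, n = 4; exact permutation p = 0.2).

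**Figure D1:**
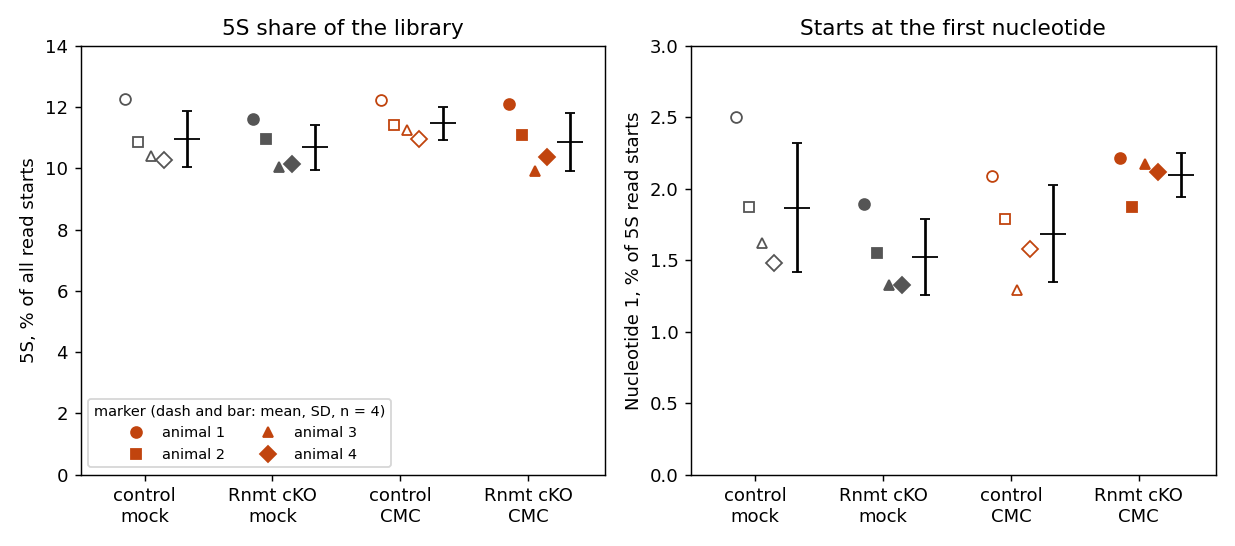
Percent of all read starts that fell in 5S rRNA (left) and percent of 5S starts at nucleotide 1 (right), 1 symbol per library, with the mean and SD of each group of 4 beside them and the symbol shape giving the animal number. The 5S share lies between 9.93% and 12.3% with overlapping groups. At nucleotide 1 the Rnmt cKO libraries have the lower mean in mock and the higher mean with CMC.

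Reads that start at nucleotide 1 come from reverse transcription that ran to the 5′ end. Nucleotide 1 held 2.50%, 1.87%, 1.62% and 1.48% of 5S starts in control mock libraries 1 to 4 and 1.89%, 1.55%, 1.33% and 1.33% in Rnmt cKO. With CMC the values were 2.09%, 1.79%, 1.29% and 1.58% in control and 2.22%, 1.87%, 2.18% and 2.12% in Rnmt cKO. So the share was lower with CMC in 3 of 4 control animals and higher with CMC in 4 of 4 Rnmt cKO animals. Internal starts made up 97.5% to 98.7% of 5S starts in all libraries. By the methods of the study, the RNA was fragmented by heat before the libraries were made. An internal start can thus be a fragment end or a stop of reverse transcription, and these cannot be told apart here.

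The genotype difference in this change was 0.752 percentage points, with a mean change of -0.182 ± 0.234 in control and 0.570 ± 0.288 in Rnmt cKO (SD, n = 4). The changes of the genotypes did not overlap: -0.412 to 0.100 in control and 0.320 to 0.851 in Rnmt cKO. The exact permutation p was 0.0286, the smallest that 4 against 4 can give, and the adjusted p was 0.135, so the difference did not pass the correction over 13 tests. This test was added after the values were seen. Within CMC libraries, Rnmt cKO held 2.10% ± 0.15 and control 1.69% ± 0.34 (SD, n = 4; exact permutation p = 0.0571, adjusted p = 0.183). Within mock libraries the order was the opposite, 1.52% ± 0.27 in Rnmt cKO and 1.87% ± 0.45 in control (SD, n = 4; exact permutation p = 0.257, adjusted p = 0.342), and lower in Rnmt cKO in 4 of 4 same-numbered pairs. In mock libraries 5S had a lower share at nucleotide 1 than 5.8S rRNA, 1.70% against 2.57%, in 8 of 8 animals (exact sign-flip p = 0.00781, the smallest possible; adjusted p = 0.102). Control 1 mock, which stood apart in 5.8S, raised the 5.8S mean with 5.29%. Leaving out 1 animal gave differences of -0.984 to -0.601 percentage points. The mock means of 18S and 28S were 1.56% and 0.442%. With CMC the means were 1.89% for 5S and 1.73% for 5.8S, with 5S the higher in 5 of 8 animals, which was not tested.

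Along 5S rRNA, reads began at almost every nucleotide up to the last stretch. A start was seen at 112 nucleotides in at least 1 library and at 109 in every library, while an even spread would put 0.833% of starts on each of the 120. Nucleotide 73 had the most, with a mean of 2.48% of 5S starts over the 16 libraries, and nucleotides 40, 69, 80 and 84 followed among the 5 highest. Nucleotide 57 had the fewest between nucleotides 2 and 88, with 0.345%. The last nucleotide with at least 10 starts in every library was 105, and the last with any was 117, in control 4 CMC alone. The shape was shared: across nucleotides 1 to 88, Pearson r between libraries of the same treatment was 0.813 to 0.992 over 56 pairs, and 0.769 to 0.945 between treatments over 64 pairs (correlations across positions, which are not independent replicates).

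**Figure D2:**
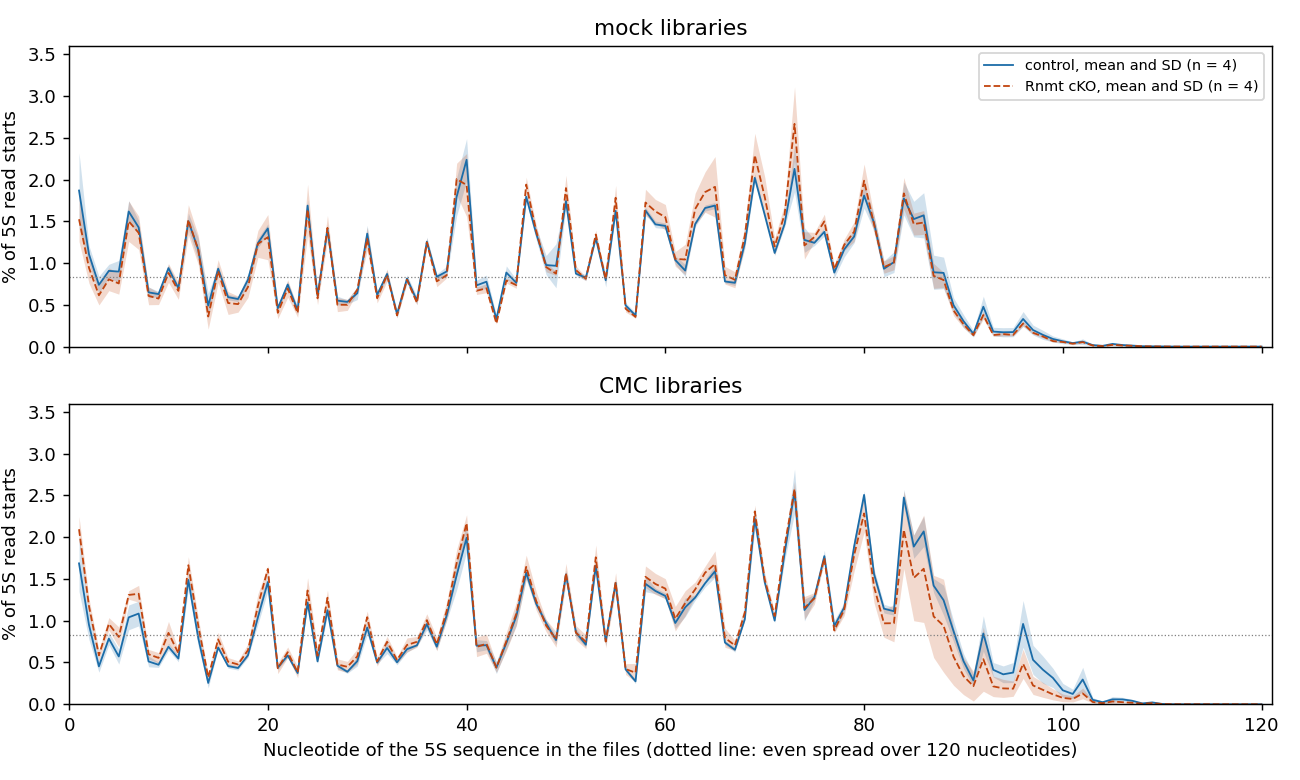
Percent of 5S read starts at each nucleotide of 5S rRNA in mock (top) and CMC libraries (bottom), as the mean of 4 control (solid) and 4 Rnmt cKO animals (dashed) with the SD shaded. The peaks at nucleotides 40, 73, 80 and 84 appear in both treatments, and starts fall to near 0 after about nucleotide 105.

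5S starts lay farther toward the 3′ end with CMC in all control animals and in 2 of 4 Rnmt cKO animals. Nucleotides 1 to 60 held 62.8%, 60.7%, 56.5% and 60.03% of starts in control mock libraries and 54.6%, 52.0%, 49.2% and 51.2% with CMC. In Rnmt cKO they held 61.4%, 59.1%, 53.0% and 58.9% in mock and 56.1%, 50.1%, 59.4% and 61.3% with CMC. The change was -8.26 ± 0.66 percentage points in control and -1.39 ± 7.03 in Rnmt cKO (SD, n = 4), where animals 3 and 4 had changes of 6.36 and 2.44. Over 8 animals the mean change was -4.83 (exact sign-flip p = 0.0703, adjusted p = 0.183), and without Rnmt cKO 3 it was -6.42 (exact sign-flip p = 0.0313). The genotype difference in the change was 6.88 percentage points (exact permutation p = 0.143, adjusted p = 0.265), 4.30 without Rnmt cKO 3 and 9.41 without Rnmt cKO 2. In mock libraries the share in nucleotides 1 to 60 was lower in Rnmt cKO in 4 of 4 same-numbered pairs (58.1% against 60.02%, exact permutation p = 0.457). Like the test at nucleotide 1, these were added after the values were seen.

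The other side of this shift lay in nucleotides 61 to 88 and 89 to 120. Nucleotides 61 to 88 held a mean of 37.0% of 5S starts in control mock libraries and 41.5% with CMC. They rose from 36.2% and 38.3% to 39.7% and 43.5% in Rnmt cKO 1 and 2. In Rnmt cKO 3 and 4 they fell from 44.3% and 38.9% to 38.2% and 37.0%. Nucleotides 89 to 120 held 2.51% to 4.22% of 5S starts in control mock libraries. With CMC they held 4.24%, 7.00%, 8.92% and 6.85% in control 1 to 4. In Rnmt cKO 1 and 2 the share was 4.23% and 6.33% with CMC, whereas in animals 3 and 4 it was 2.74% and 2.22% in mock and 2.39% and 1.68% with CMC. Rnmt cKO 3 and 4 were thus also the animals with the highest CMC minus mock values at nucleotide 1, 0.851 and 0.787 percentage points. Whether fragment length differed between these libraries was not tested, since the files give starts and not ends.

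**Figure D3:**
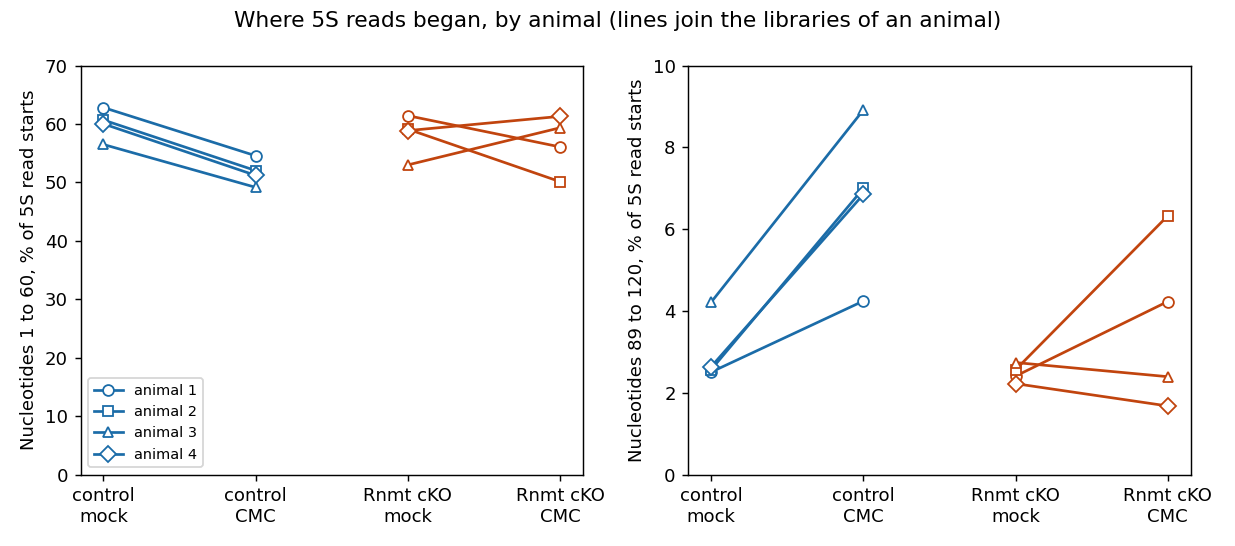
Percent of 5S read starts in nucleotides 1 to 60 (left) and 89 to 120 (right), with a line from the mock to the CMC library of each animal. All 4 control animals and Rnmt cKO 1 and 2 go down on the left and up on the right, and Rnmt cKO 3 and 4 go the opposite way.

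The response of single positions to CMC was measured as percent termination, the starts at a nucleotide out of the starts in the 65 nucleotides that end there, which is the longest insert a read could cover. Near the 5′ end few nucleotides lie in that window, so values there are high by construction: beyond nucleotide 1, which is at 100%, the 5 highest mock terminations were at nucleotides 2, 3, 4, 6 and 7, with 37.9%, 20.0%, 20.3% and 23.6% at the first 4 of them. A position was tested with edgeR where its mean termination was at least 1%, which kept 85 of the 120 5S positions. Of these, 19 differed between CMC and mock at an adjusted p under 0.05, 13 higher and 6 lower, against 21.7% of all 4026 tested rRNA positions (11.5% higher and 10.2% lower). The 5S shares were 15.3% higher and 7.06% lower, near these backgrounds. The shares higher and lower were 13.8% and 16.1% for 18S, 10.4% and 8.44% for 28S, and 13.2% and 0% for 5.8S.

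The higher stops lay from nucleotide 20 to 84 and the lower ones toward the 5′ end. Higher were nucleotides 20, 33, 35, 38, 43, 45, 53, 62, 72, 76, 79, 80 and 84. Lower were nucleotides 3, 5, 6, 13, 24 and 30. When positions were scaled to library totals in place of the window, the 13 higher stops stayed called and the lower ones dropped to 2, with nucleotide 30 the only one of the 6 among them. The number of lower stops was 3 when control 2, 3 or 4 or Rnmt cKO 1, 2 or 4 was left out. Nucleotide 84 was not called as higher without control 2, 3 or 4 or Rnmt cKO 1 or 2, and nucleotide 43, just above the 1% filter, was not tested without control 1 or 3. Of the 13, 10 were higher with CMC in all 8 animals.

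The highest log2 change among tested positions was 0.67 for 5S, at nucleotide 43, 3.04 for 18S, 3.18 for 28S and 1.41 for 5.8S, the highest of 85, 1075, 2760 and 106 positions. The median log2 change of the positions called higher was 0.47, 0.44, 0.48 and 0.49. At nucleotide 43, PSU scores were 1.31, 1.57, 2.44 and 1.34 in control 1 to 4 and 1.73, 1.51, 1.41 and 1.68 in Rnmt cKO 1 to 4 (log2 change 0.67, SE 0.10, edgeR adjusted p = 0.000787). Every animal was above 1, and control 3 was the highest. At nucleotide 45 the scores were 1.70, 1.46, 1.95 and 1.51 in control and 1.69, 1.33, 1.35 and 1.45 in Rnmt cKO, with mean termination rising from 1.84% to 2.84% (log2 change 0.63, SE 0.08, edgeR adjusted p = 0.000236). At nucleotide 33 they were 1.52, 1.58, 2.08 and 1.40 in control and 1.55, 1.54, 1.32 and 1.33 in Rnmt cKO (log2 change 0.61, edgeR adjusted p = 0.000422). Nucleotides 33, 35, 38, 43 and 45 were all called, and control 3 had the highest score at each of them.

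Nucleotide 35 had scores of 1.52, 1.54, 1.90 and 1.46 in control and 1.55, 1.56, 1.23 and 1.41 in Rnmt cKO (log2 change 0.60, edgeR adjusted p = 0.000293). Farther 3′, nucleotide 79 had 1.61, 1.45, 1.42 and 1.62 in control and 1.53, 1.51, 1.22 and 1.17 in Rnmt cKO (log2 change 0.52, edgeR adjusted p = 0.000628). Rnmt cKO 3 and 4 were the lowest there, as they were at nucleotide 84 with 0.950 and 0.916 against 1.24 to 1.50 in the other 6 animals. Over the 13 stops, mean scores ran from 1.26 at nucleotide 20 to 1.62 at nucleotide 43, on 304 starts or more in every library. Of the 5 nucleotides with the most starts, 80 and 84 were called higher, and 40, 69 and 73 had log2 changes of 0.16, 0.21 and 0.22 that did not pass.

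**Figure D4:**
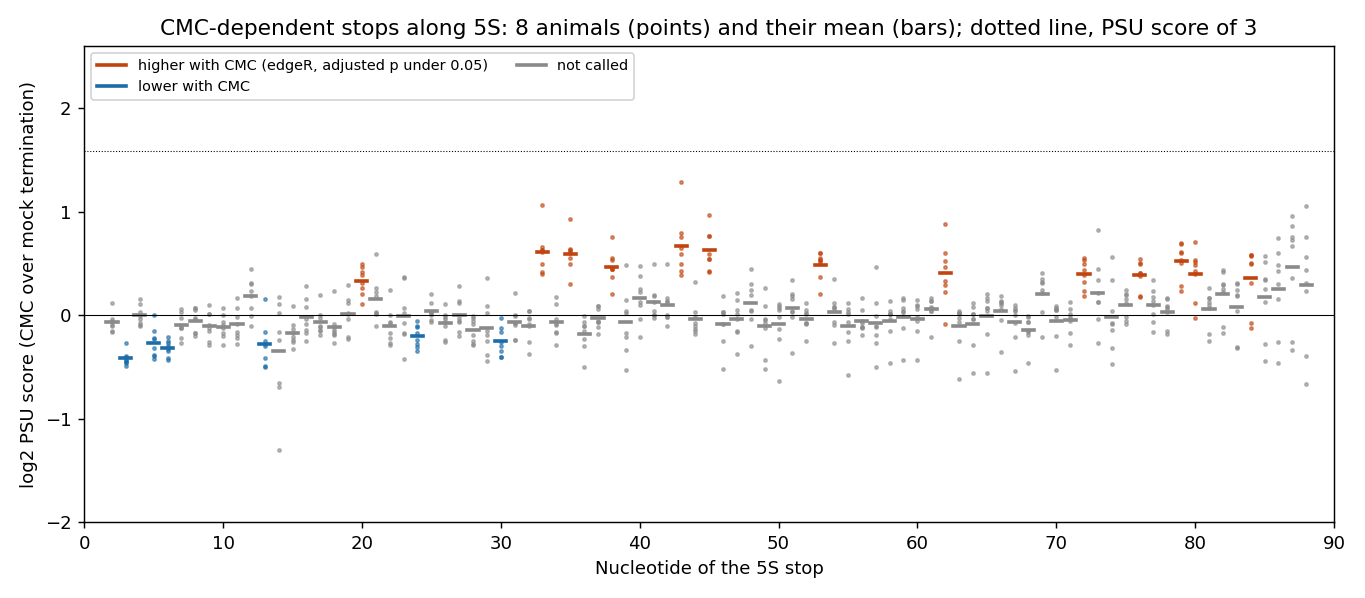
Log2 PSU score (CMC over mock termination) at nucleotides 2 to 88 of 5S rRNA, with a point for each of 8 animals and a bar for their mean. Red marks the 13 stops called higher, which lie between nucleotides 20 and 84, and blue the 6 called lower, which lie between 3 and 30. No mean reaches the dotted line at a PSU score of 3.

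Among the falls, nucleotide 3 had PSU scores of 0.732, 0.743, 0.763 and 0.712 in control and 0.735, 0.725, 0.831 and 0.756 in Rnmt cKO, all below 1 (log2 change -0.42, SE 0.06, edgeR adjusted p = 0.000803). Nucleotide 6 was below 1 in all 8 animals as well, from 0.743 to 0.861 (log2 change -0.32). Nucleotide 13 was below 1 in 7 of 8 animals, with control 1 at 1.11 (log2 change -0.28, edgeR adjusted p = 0.0333). With library totals as the scale, the log2 changes at nucleotides 3, 6 and 13 were -0.27, -0.30 and -0.31 by TMM and did not pass (edgeR adjusted p 0.0511 to 0.184 over TMM and median-ratio scaling).

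Past nucleotide 88 no position reached the mean termination of 1% that the filter asked for, and the PSU scores there varied more between animals. Mean PSU scores were above 1 at every stop from 89 to 109, the lowest 1.45 at stop 90. The stops named next were thus not alone in this. Stops 96, 102, 104, 106, 107 and 109 were above 1 in all 8 animals, with mean PSU scores of 2.27, 3.57, 2.32, 2.59, 2.46 and 6.94, and stop 99 was above 1 in 7 of 8 with a mean of 2.57. At stop 102 the scores were 3.17, 4.69, 4.05 and 7.09 in control and 2.92, 3.57, 1.86 and 1.20 in Rnmt cKO, on 61 to 1002 starts. Rnmt cKO 3 and 4 were the lowest there. At stop 109 the scores rested on 2 to 73 starts per library and ran from 3.02 to 20.5. CMC termination at stops 96, 102 and 109 was 0.974%, 0.295% and 0.0271%. Without the 1% filter the log2 changes at stops 102 and 109 were 1.71 and 2.45. These stops were singled out after their values were seen.

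By the study's criteria (CMC termination of at least 3%, PSU score of at least 3), no pseudouridine was called in 5S rRNA in either genotype, while 18S had 28 called sites, 28S had 40 and 5.8S had 2. The criteria were applied here to genotype means and to termination by window, whereas the study divided by read coverage. CMC termination reached 3% at 34 stops of 5S, and there the PSU criterion was not narrowly missed. The highest mean PSU score among them was 1.49 in a genotype, at nucleotide 53. The PSU score reached 3 in a genotype at 4 stops, between nucleotides 99 and 109, where the highest mean CMC termination was 0.295%. Depth differs along 5S. Past nucleotide 88 the highest mean CMC termination was 0.974%, at stop 96, so no stop there could be called, whatever its PSU score. Whether a site lies past nucleotide 88 cannot be judged from these calls, and past nucleotide 105 starts were few as well. For control the median PSU score over 84 positions averaged 1.06 ± 0.034, and for Rnmt cKO 0.946 ± 0.071 (SD, n = 4). All 4 control medians were above 1, from 1.02 to 1.10, and 3 of 4 Rnmt cKO medians were below 1, from 0.865 to 1.01. In control 59.5% to 79.8% of positions were above 1, against 19.0% to 52.4% in Rnmt cKO, with animals 3 and 4 the lowest. For 18S, 28S and 5.8S the medians averaged 0.979, 0.993 and 1.21 in control. In Rnmt cKO they averaged 0.954, 0.972 and 1.06. The shares above 1 in control and Rnmt cKO overlapped there. They were 37.9% to 57.9% and 37.1% to 48.0% for 18S, and 42.0% to 57.5% and 42.9% to 46.2% for 28S. For 5.8S they were 44% to 88% and 48% to 81%. Positions share the starts in their denominators, and the difference in 5S was not tested. These scores were computed by window alone. By edgeR, the median log2 genotype difference in the CMC effect over 5S was -0.18 by window and 0.02 with TMM scaling. The direction of the 5S difference may thus depend on the scaling.

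No 5S position differed between genotypes at an adjusted p under 0.05. In mock libraries 0 of 84 positions passed edgeR's test (0 at an unadjusted p under 0.05, 0 with DESeq2), where 0% of 3985 rRNA positions passed (5 with DESeq2). With the replicate number as a block, 42 of the 3985 passed (2 higher and 40 lower in Rnmt cKO), and 0 in 5S. In CMC libraries 0 of 85 passed (2 at an unadjusted p under 0.05, 0 with DESeq2), where 0% of 4018 passed (113 with DESeq2, and 13 by edgeR with TMM scaling), and the genotype difference in the CMC effect passed at 0 of 85 (2 at an unadjusted p under 0.05, 0 with DESeq2), where 0% of 4026 passed (10 with DESeq2). The lowest adjusted p in 5S were 0.653, 0.264 and 0.785. The median SE of a log2 difference was 0.11 in mock and 0.09 in CMC libraries, so a small change at a position would not have been seen.

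In CMC libraries termination was lower in Rnmt cKO at 82 of 85 positions, with log2 differences from -0.43 to 0.15, and these positions share the reads that form their denominators. In mock libraries 64 of 84 were higher in Rnmt cKO, from -0.33 to 0.29. Over all tested rRNA positions the median log2 difference, by the same window, was 0.003 in CMC and 0.038 in mock libraries. The share of all positions in each direction was not counted. Scaled to library totals by TMM, the median log2 difference over 5S turned from 0.07 to -0.06 in mock libraries and went from -0.10 to -0.05 in CMC libraries, and that of the difference in the CMC effect turned from -0.18 to 0.02, so the directions in mock and in the CMC effect depended on the scaling. The smallest p in CMC libraries was at nucleotide 21, where termination was 2.56%, 2.56%, 3.17% and 2.43% in control and 2.14%, 1.99%, 2.35% and 2.36% in Rnmt cKO (log2 difference -0.28, SE 0.11, edgeR adjusted p = 0.264). The groups did not overlap there, but the position was picked for its small p, so this adds no support. Nucleotides 31 and 48 came next. In mock libraries the smallest p were at nucleotides 12, 46 and 73. At nucleotide 46 mock termination was 3.78%, 3.92%, 4.37% and 4.23% in control and 4.07%, 4.30%, 5.76% and 4.74% in Rnmt cKO, which overlapped, with Rnmt cKO 3 the highest. For the difference in the CMC effect the smallest p were at nucleotides 12, 50 and 55. At nucleotide 50 the PSU scores were 1.05, 1.08, 1.06 and 1.03 in control and 0.913, 0.989, 0.645 and 0.855 in Rnmt cKO, all below the control values. Nucleotide 50 was likewise picked for its small p, so that order adds no support.

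The share of 5S was set against those of the other rRNAs over the 8 animals, with the shares in a library adding up to the whole. In mock libraries the RNA most like 5S was 28S (Pearson r = 0.701, exact permutation p = 0.051; Spearman rho = 0.238, exact p = 0.582), and in CMC libraries it was 5.8S (r = 0.548, exact permutation p = 0.159; rho = 0.619, exact p = 0.115). After adjustment over 6 relations the p for r were 0.102 and 0.239, and those for rho 0.873 and 0.265. Leaving out control 1 and Rnmt cKO 1, the animals farthest from the median, r with 28S became -0.855 in mock libraries, so that relation rested on these animals. In CMC libraries r with 5.8S was 0.566 without control 1 and Rnmt cKO 3. The most negative relations were with 28S in CMC libraries (r = -0.809, exact permutation p = 0.0156, adjusted p = 0.0535; rho = -0.667, exact p = 0.0831, adjusted p = 0.265) and with 5.8S in mock libraries (r = -0.806, exact permutation p = 0.0178, adjusted p = 0.0535; rho = -0.595, exact p = 0.132, adjusted p = 0.265). They became -0.564 without control 1 and Rnmt cKO 3, and 0.254 without control 1 and Rnmt cKO 1. None of the 6 relations passed the adjustment. With all 8 animals, 5S and 28S were related in opposite directions in the 2 treatments. Without the animals farthest from the median, both relations were negative (-0.855 in mock, -0.564 with CMC).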

How the data were processed

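Ψ-seq libraries from 8 animals (4 control, 4 Rnmt cKO; a CMC and a mock library each) were used. By the methods of the study, the authors took a random barcode of 10 nucleotides off each read, cut adapters, mapped the reads with bowtie2 to custom rRNA sequences, collapsed PCR duplicates that shared a barcode, and dropped secondary alignments and those of mapping quality below 20. The submitters' processing notes also list STAR 2.5.2b. The deposited values are counts of read starts per nucleotide, not normalised. Coverage is not in these files, so percent termination used the starts in the 65 nucleotides ending at a position (75 cycles less the barcode) as the denominator, which counts every read as full length.

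Positions whose mean termination reached 1% were tested with edgeR 4.0.16 (quasi-likelihood, log denominator as offset, Benjamini-Hochberg adjustment over all tested positions of the 4 rRNAs), with the animal as a block for CMC effects. DESeq2 1.42.0, limma 3.58.1, other windows, filters and scalings and leaving out each animal were alternatives. The scripts were tested on simulated data. Library values were compared by exact permutation or sign-flip tests, two-sided, adjusted over 13 tests. A pseudouridine call needed a mean CMC termination of at least 3%, a mean PSU score of at least 3 and a score in at least 3 animals.

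Same-numbered control and Rnmt cKO mock libraries deviated together (r = 0.152 to 0.639 over 4026 positions), while CMC libraries did not (r = -0.338 to -0.020). The mock libraries thus met the rule used for pairing (r over 0.1 for every pair). Differently numbered libraries were not compared, so the rule cannot show that a number marks a pair. The main genotype tests did not use the numbers, which were a block in an alternative. The sequence of 5S rRNA is not reported here. Whether a number marks a shared day is not given in the sources used here.

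Named positions were nucleotide 1, the 5 with the highest mock termination, PSU score and share of starts, the 5 largest CMC rises and 3 largest falls past the threshold, the 3 smallest p of each genotype test and the last position with at least 10 starts in every library. The members, lists and tests were chosen with earlier results of these data known. P-values measure the spread between these numbered samples. Depth was 1130058 to 2165668 read starts per library, and small counts limit precision past nucleotide 105.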

Additional observations from a re-analysis of the deposited data

Results flagged for a closer look

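In 74 groups of 4 values examined, 7 had a value far from the other 3 by Dixon's test, where chance gives about 1 in 20 groups, or 3.7. Control 1 mock had 5.29% of 5.8S starts at nucleotide 1, against 2.00% to 2.21% in the other control mock libraries, and a ratio of 5S to 5.8S starts of 3.00, against 0.942 to 1.07. Control 2 CMC had 2.06% of 5.8S starts at nucleotide 1, against 1.53% in each of the others. Control 3 mock had 4.22% of 5S starts in nucleotides 89 to 120, against 2.51% to 2.64%. Among PSU scores of control animals, control 3 was high at stop 35 (1.90, against 1.46 to 1.54) and low at stop 84 (1.24, against 1.48 to 1.50), and control 1 was high at stop 46 (1.14, against 1.01 to 1.02).

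The CMC minus mock change in the share of 5S starts at nucleotide 1 differed between genotypes by 0.752 percentage points (exact permutation p = 0.0286, adjusted p = 0.135). The changes of the genotypes did not overlap. Rnmt cKO 3 and 4, with the highest changes, were also the animals with more starts in nucleotides 1 to 60 with CMC than in mock, and the part of that shift in the difference was not tested.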

How the results depend on the processing

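Of 695 alternative values over 42 results, 635 kept their direction and their side of the threshold, or moved by less than the limits used. The 5S share difference between genotypes changed sign with 18S starts as the denominator (5S as a percent of 18S starts, 1.19 in CMC and 3.49 in mock libraries) and, in mock libraries, without control 1 (0.174 percentage points, against -0.573 to 0.174 over all single animals left out). In 10 alternatives the higher 5S share with CMC was not past an unadjusted 0.05 by exact test. Among them were those against 18S (1.299) and without the last 400 nucleotides of 28S (0.348). So were those without nucleotide 1 (0.324) and without the replicate block (0.349). The CMC minus mock change was -23.1 against 5.8S starts, where the genotype difference in the change was 46.8. Leaving out 1 animal gave 0.280 to 0.414, and some of these values were also among the 10. At nucleotide 1, the CMC effect was 0.614 with nucleotides 1 to 60 as the denominator (exact sign-flip p = 0.0391). The genotype difference in that change was 0.659 to 0.846 leaving out 1 animal (exact permutation p = 0.0571 each, the smallest that 3 against 4 allows) and 0.752 with the replicate block, where its exact p was the smallest that 4 pairs allow and not under 0.05. For nucleotides 1 to 60, the CMC effect was -6.42 to -4.23 leaving out 1 animal, with p past 0.05 without Rnmt cKO 3 or 4, and -4.83 without the replicate block (permutation p = 0.0267).

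The number of 5S positions with a CMC effect was 19, and 14 to 20 leaving out 1 animal. With no termination filter it was 33 of 110 (28 higher, of which 15 lay past nucleotide 88). Over all rRNAs 1231 of 6819 were called there (702 higher), so in that setting the 5S share was above the background. All 13 higher stops were shared by every alternative with all 8 animals, and leaving out 1 animal kept at least 11 of them. Nucleotide 87 was added with the shorter windows, with DESeq2 and without Rnmt cKO 3 or 4. At nucleotide 12, with library totals as the scale, the genotype difference was -0.018 and -0.026 in mock libraries and 0.080 and 0.082 for the interaction, opposite in sign to the values by window. With the replicate block in mock libraries, 42 rRNA positions were called and 0 in 5S, and the block changed no other genotype call at a 5S position. Limits: coverage was approximated, and fragment ends were not used. The cause of each change was not tested.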
